A study of Homo sapiens with 16 samples.

Results

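After 8 h of 17β-estradiol (E2), 81 of the 26364 genes counted were lower in both an endometrial and a breast cancer cell line. They included the cell death gene BMF, the Notch ligand JAG1 and the Notch target HES1, the transforming growth factor genes TGFB2 and TGFB3, the cell cycle inhibitor CCNG2 and the transcriptional regulators ARID5B, ZNF608, JUNB, CITED2 and ID1. The genes were chosen by their level. Counts were expressed as CPM (a gene's count as a share of the total count of its library, in millionths), and L was the log2 ratio of the mean CPM + 0.5 at a time point to the mean CPM + 0.5 at 0 h. A gene was taken when its mean at 0 h was at least 2 CPM in each line, L at 8 h was -0.5 or lower in each line, and both 8 h libraries lay below both 0 h libraries in each line. Of the 11146 genes that reached 2 CPM at 0 h in both lines, 523 were lower at 8 h in Ishikawa and 305 in T-47D cells by this rule, so the 81 shared genes made up 15.5% of the first list and 26.6% of the second. The same rule turned round found 39 genes higher in both lines.

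The endometrial line, Ishikawa, was derived from an adenocarcinoma of the human endometrium, and the breast line, T-47D, from a human ductal carcinoma. By the labels, each line was kept for 3 days (longer by the study's methods) in medium without phenol red and with charcoal-stripped serum, which removes steroid hormones, and then received 10 nM E2 for 2, 4 or 8 h or vehicle (0 h). Each of the 8 groups had 2 libraries of polyadenylated RNA, 16 in all. The samples include no vehicle libraries at 2, 4 or 8 h. Effects of E2 therefore cannot be told apart from those of time or handling. Nothing in the labels says that the 2 libraries of a group came from separate cultures, so the p-values measure the spread between libraries, which may be technical.

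E2 acts mainly through estrogen receptor α, the product of ESR1, a transcription factor that binds DNA at estrogen response elements or through other DNA-bound factors once it holds its ligand. The receptor is best known as an activator, of PGR and GREB1 among others, but many genes fall when estrogen is given, and in breast and endometrial epithelium these include genes that restrain growth or favour cell death. Steady-state mRNA was measured here, so slower synthesis and faster decay cannot be told apart, nor can fewer expressing cells and less RNA per cell.

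The libraries held 41177912 to 58918642 counts in Ishikawa and 41223813 to 64148903 in T-47D cells. PGR rose at 2 h in Ishikawa cells (log2 fold change 2.45 ± 0.19 SE, edgeR adjusted p = 6.17e-07), from a low 1.38 and 1.01 CPM with vehicle. In T-47D cells it rose by 0.87 ± 0.04 SE (edgeR adjusted p = 1.93e-11). GREB1 rose at 2 h in T-47D cells (1.78 ± 0.05 SE, edgeR adjusted p = 8.08e-14) and in Ishikawa cells (0.63 ± 0.12 SE, edgeR adjusted p = 0.00511). ESR1 itself fell at 2 h in Ishikawa cells (-0.23 ± 0.06 SE, edgeR adjusted p = 0.0298) and rose in T-47D cells (0.20 ± 0.04 SE, edgeR adjusted p = 0.006). All 7 luminal breast markers were at 1 CPM or more in T-47D cells, and 6 of 7 endometrial markers in Ishikawa cells, MSX2 being below 1 CPM. In the other line, 5 of the luminal breast markers reached 1 CPM in Ishikawa and 2 of the endometrial markers in T-47D cells. Of the 7 fibroblast markers, 3 reached 1 CPM in Ishikawa and 2 in T-47D cells, while COL1A2, DCN and PDGFRB were below 1 CPM in both. The summed level of that list was 262 to 291 CPM at 0 h and 170 to 191 CPM at 8 h in Ishikawa cells, and 92.3 to 101 CPM at 0 h and 75.6 to 81.8 CPM at 8 h in T-47D cells, and its part in the results below was not tested. In Ishikawa cells the 4 h and 8 h libraries were alike across their labels. The second 4 h library correlated more closely with the first 8 h library (r = 0.9942 on log2 CPM, over all genes kept) than the 4 h libraries did with each other (r = 0.9924) or the 8 h libraries (r = 0.9934). By edgeR, 2 of 15787 genes differed between 8 h and 4 h in Ishikawa cells (554 at an unadjusted p under 0.05) and 533 of 15594 in T-47D cells. Labels were kept as given. The counts of genes past the tests of the Ishikawa 4 h libraries are given below with the 4 h and 8 h libraries taken as 1 group as well. Medians, first time points to pass and values of single genes are given by label only.

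The promoters of 66 of the 81 genes were found in RefSeq (GRCh38.p14), as windows from 250 bases before to 50 bases after the start of the gene. Of the genes that reached 2 CPM in both lines, 9165 had such a window. Both strands were searched for each motif, and overlapping motifs were each counted. No window held a full estrogen response element (the palindrome of GGTCA and TGACC with any 3 bases between), against 0.0109% of the 9165 expressed genes. The element was too rare for its absence from 66 windows to be informative, and sites outside the windows were not searched. Its half-site GGTCA was in 23 windows (34.8%, against 34.0% of expressed genes), so the shares were near each other. The E-box CACGTG was in 11 (16.7% against 10.5%), AP-1 (TGANTCA) in 4 (6.06% against 4.02%), the RBPJ motif GTGGGAA in 5 (7.58% against 5.75%), and the xenobiotic response core GCGTG in 34 (51.5% against 52.4%). The GC box GGGCGG was in 37 windows (56.1%, against 72.3% of expressed genes), with a median GC content of 64% against 65.7%. The windows of 4 genes are shown because the results return to them. BMF had the most negative mean L at 8 h, TNS2 was lower by 2 h in both lines, HES1 is a direct Notch target with an RBPJ motif 85 bases before its start, and CYP1A1, the classic target of the aryl hydrocarbon receptor, has GCGTG 57 bases before its start. Capitals mark GGTCA or its complement TGACC in BMF (124 and 72 bases before the start) and TNS2 (244 and 84 bases before), GTGGGAA in HES1 and GCGTG in CYP1A1. Each reads 5′ to 3′ along the gene. The windows lie at chr15:40108830-40109129 (minus strand), chr12:53046741-53047040 (plus), chr3:194135898-194136197 (plus) and chr15:74725479-74725778 (minus). These letter matches are descriptions of the windows and not sites of binding.
BMF: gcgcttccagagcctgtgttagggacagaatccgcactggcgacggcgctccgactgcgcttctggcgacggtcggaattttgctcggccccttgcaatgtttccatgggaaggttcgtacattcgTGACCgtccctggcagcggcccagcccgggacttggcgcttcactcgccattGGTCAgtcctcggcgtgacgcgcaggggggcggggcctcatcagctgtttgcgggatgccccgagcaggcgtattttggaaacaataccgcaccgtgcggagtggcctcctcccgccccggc
TNS2: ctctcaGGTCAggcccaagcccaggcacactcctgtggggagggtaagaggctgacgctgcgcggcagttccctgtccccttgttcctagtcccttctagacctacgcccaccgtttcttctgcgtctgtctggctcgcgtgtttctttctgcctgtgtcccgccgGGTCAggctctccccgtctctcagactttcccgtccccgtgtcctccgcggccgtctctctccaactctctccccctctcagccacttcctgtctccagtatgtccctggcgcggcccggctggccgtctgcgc
HES1: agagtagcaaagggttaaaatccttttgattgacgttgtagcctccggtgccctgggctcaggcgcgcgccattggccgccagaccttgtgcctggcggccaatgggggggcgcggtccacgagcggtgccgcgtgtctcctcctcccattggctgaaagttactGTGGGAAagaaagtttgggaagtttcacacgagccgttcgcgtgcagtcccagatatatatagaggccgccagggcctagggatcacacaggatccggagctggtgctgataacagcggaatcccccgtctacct
CYP1A1: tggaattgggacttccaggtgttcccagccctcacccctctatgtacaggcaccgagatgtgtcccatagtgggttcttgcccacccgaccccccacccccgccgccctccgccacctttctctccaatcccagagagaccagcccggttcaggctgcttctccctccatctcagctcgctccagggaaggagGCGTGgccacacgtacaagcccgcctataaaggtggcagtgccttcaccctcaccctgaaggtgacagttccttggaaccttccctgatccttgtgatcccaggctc

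Across the 81 genes, the median L after 2, 4 and 8 h was -0.39, -0.74 and -0.72 for Ishikawa and -0.32, -0.48 and -0.68 for T-47D. The median over the 11146 expressed genes lay between -0.02 and 0.01 at each time and line. The level at 8 h was used to choose the genes, so the 8 h values are given as a description. The median gene had covered 51% of its 8 h change by 2 h in Ishikawa and 49% in T-47D cells, and 98% and 73% by 4 h. The 39 genes higher in both lines had covered a median of 79% and 86% by 2 h. At 8 h, L was -1 or lower for 19 genes in Ishikawa cells, 7 in T-47D cells and 3 in both.

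Both 2 h libraries were below both 0 h libraries for 68 genes in Ishikawa cells, 70 in T-47D cells and 60 in both lines, against 27.6%, 28.5% and 13.6% of the 11146 expressed genes. The 0 h libraries also served the choice of the genes, so a low 2 h value and a place among the 81 are not independent, and these counts support nothing further. By the quasi-likelihood test of edgeR, adjusted by Benjamini-Hochberg over every gene tested, 30 of the 81 were lower at 2 h in Ishikawa cells (1.74% of 15787 genes tested were called lower) and 40 in T-47D cells (4.4% of 15594), 22 of them in both. None of the 81 was called higher at 2 h, where 2.61% of genes in Ishikawa and 4.9% in T-47D cells were. At 4 h, 69 were lower in Ishikawa cells (6.6% called) and 72 in T-47D cells (10.4% called), 61 of them in both. The first time point to pass was 2, 4 and 8 h for 30, 40 and 10 genes in Ishikawa cells, with ZNF503-AS2 not passing at any, and for 40, 32 and 9 genes in T-47D cells. HYAL1 was the single gene that first passed at 8 h in both lines. Counts depended on single libraries. The 2 h count in Ishikawa cells was 18 without the second 0 h library, without the first 2 h library or without the second 2 h library, and the 4 h count was 40 without the second 0 h library. In T-47D cells the 2 h count was 25 without the first 2 h library. Without any 1 library, 16 of the 30 and 25 of the 40 calls at 2 h held each time, and 10 genes did so in both lines, namely AMIGO2, ARID5B, CCNG2, CITED2, HES1, ID1, JUNB, PHLDB2, TGFB2 and ZNF608.

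**Figure D1:**
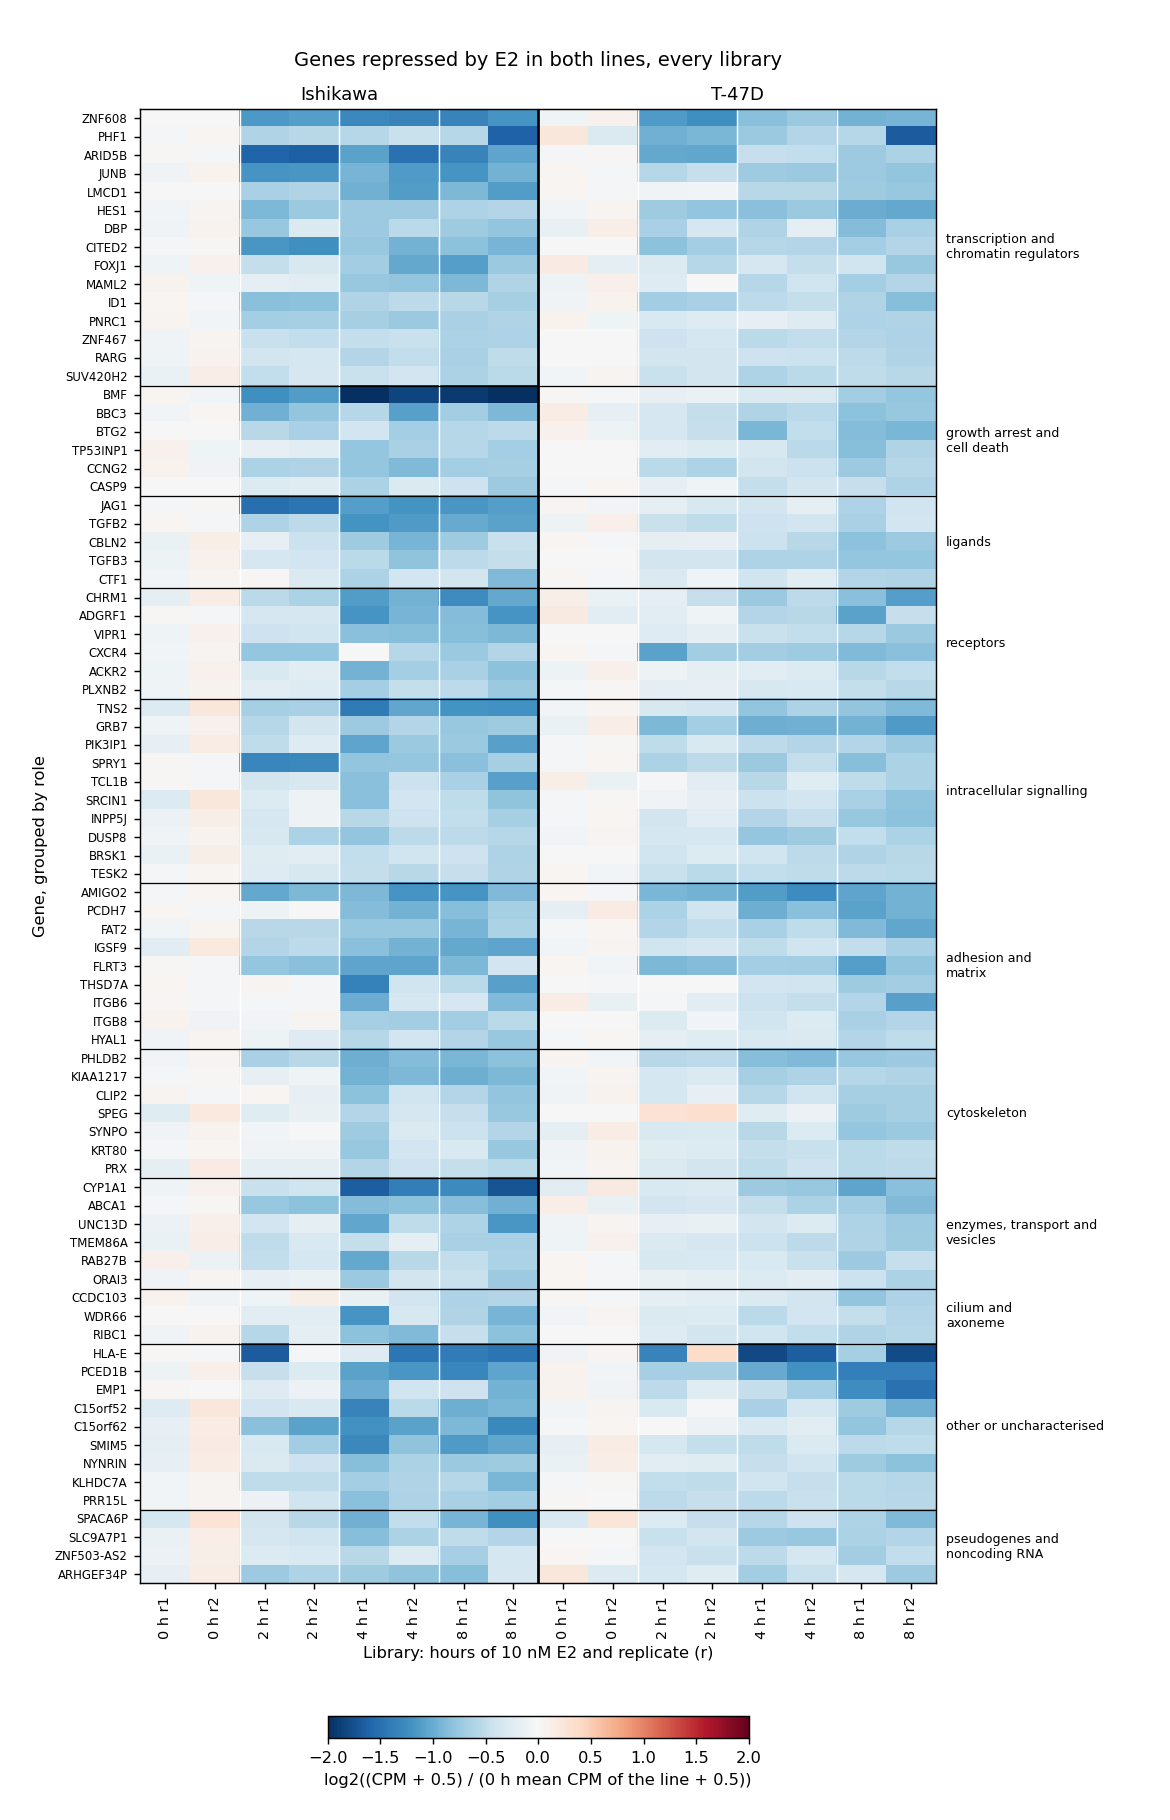
Heat map of the genes, all but 1 of the 81 (rows, grouped by role and ordered by their mean L at 8 h) in the 16 libraries (columns, 0 to 8 h of 10 nM E2, 2 replicates each), with colour giving the log2 ratio of CPM + 0.5 to the 0 h mean + 0.5 of the same line. ARID5B, JAG1, SPRY1 and CITED2 are darkest in the 2 h columns of Ishikawa cells, KIAA1217 and CYP1A1 darken from 2 h to 4 h, and the 2 libraries of HLA-E and PHF1 differ within several groups.

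The genes were sorted after the choice by what their products are known to do. The largest group was 16 transcriptional and chromatin regulators, among them ZNF608, ARID5B, JUNB, HES1, CITED2, FOXJ1, RARG, DBP, ID1, MAML2, PHF1, SUV420H2, PNRC1, ZNF467 and LMCD1. Their median L at 2 h was -0.60 in Ishikawa and -0.45 in T-47D cells, and 11 of them were lower at 2 h by edgeR in each line. The 7 cytoskeletal genes had medians of -0.12 and -0.30 with 1 and 4 lower at 2 h, and the 9 adhesion and matrix genes -0.17 and -0.38 with 4 and 5. The groups were made with these values known, so the differences between them were not tested.

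**Figure D2:**
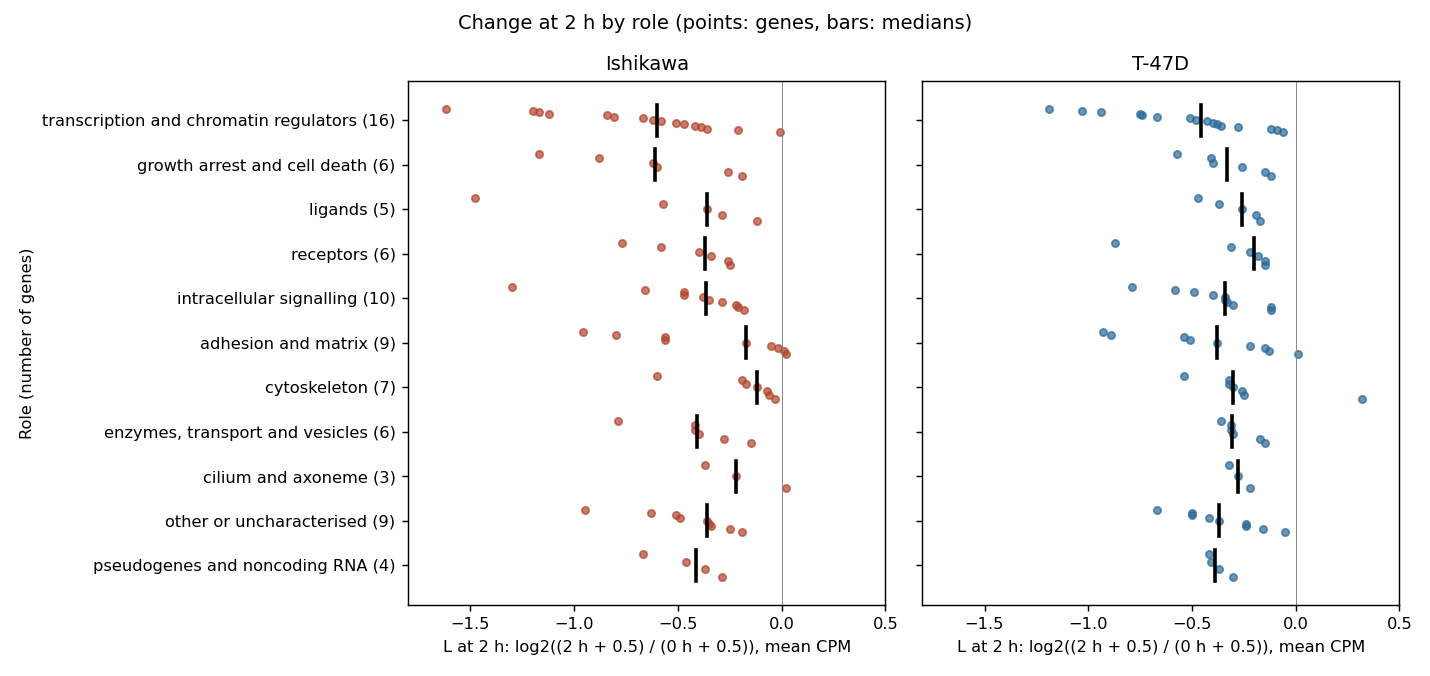
L at 2 h (log2 ratio of mean CPM + 0.5 to that at 0 h, x axis) of each of the 81 genes by role (rows, number of genes in brackets), for Ishikawa cells (left) and T-47D cells (right), with a bar at each group's median. Transcriptional regulators reach from -1.62 to -0.01 in Ishikawa cells, and the cytoskeletal genes lie between -0.19 and -0.03 there apart from PHLDB2 at -0.60.

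ARID5B, a DNA-binding cofactor of histone demethylation on chromosome 10 (63661443 to 63856703, plus strand, GRCh37), had the most negative L at 2 h in Ishikawa cells. It stood at 54.1 and 52.1 CPM with vehicle, 17.2 and 16.7 after 2 h, 25.1 and 18.5 after 4 h, and 20.7 and 25.2 after 8 h in that line. The T-47D libraries went from 155 and 162 CPM with vehicle to 77.7 and 77.0 after 2 h, 116 and 113 after 4 h, and 95.4 and 102 after 8 h. The 2 h libraries were the lowest in both lines, and in T-47D cells the 4 h libraries lay above them without overlap. Its 2 h log2 fold change was -1.64 ± 0.13 SE in Ishikawa cells (edgeR adjusted p = 5.01e-07) and -1.04 ± 0.05 SE in T-47D cells (edgeR adjusted p = 4.84e-11). From 2 h to 4 h it rose by 0.57 ± 0.05 SE in T-47D cells (edgeR adjusted p = 1.46e-06), a call that held without any 1 library, while the value in Ishikawa cells was 0.39 ± 0.13 SE (edgeR adjusted p = 0.145).

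ZNF608, which encodes a zinc finger protein, had the most negative L at 2 h in T-47D cells. Its libraries read 21.9 and 24.7 CPM with vehicle, 10.3 and 9.62 after 2 h, 12.8 and 13.7 after 4 h, and 11.9 and 12 after 8 h in T-47D cells. In Ishikawa cells they read 30.7 and 30.1, 13.5 and 13.9, 12.1 and 11.7, and 11.8 and 13.1 CPM at the same times. Its 2 h log2 fold changes of -1.23 ± 0.09 SE (T-47D) and -1.14 ± 0.09 SE (Ishikawa) differed by -0.08 ± 0.13 SE (edgeR adjusted p = 0.987). Between 2 h and 4 h it rose by 0.42 ± 0.09 SE in T-47D cells (edgeR adjusted p = 0.0149). That rise lost its call without either 2 h library or without the second 4 h library, with an adjusted p of up to 0.203.

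HES1, the transcriptional repressor through which Notch signalling acts in many cells, was lower at 2 h in both lines. It stood at 70.7 and 76.4 CPM with vehicle, 39.4 and 44 after 2 h, 44.5 and 44.5 after 4 h, and 48.0 and 48.7 after 8 h in Ishikawa cells. In T-47D cells it stood at 44 and 47.8, 27.8 and 26.3, 25.5 and 27.2, and 22.7 and 22.4 CPM. The 8 h libraries were the lowest in T-47D cells but not in Ishikawa cells, where the 2 h libraries were. At 2 h the log2 fold change was -0.81 ± 0.07 SE in Ishikawa cells (edgeR adjusted p = 2.19e-06) and -0.77 ± 0.07 SE in T-47D cells (edgeR adjusted p = 2.82e-07).

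CITED2, a coactivator partner that limits hypoxia-inducible factor, and ID1, an inhibitor of basic helix-loop-helix factors and a target of BMP signals, had their lowest Ishikawa values at 2 h. CITED2 read 45.4 and 46.6 CPM with vehicle, 20.2 and 19.3 after 2 h, 26.9 and 23.6 after 4 h, and 25.9 and 24 after 8 h in Ishikawa cells. ID1 read 291 and 276, 158 and 160, 186 and 196, and 193 and 179 CPM there. From 2 h to 4 h CITED2 rose by 0.38 ± 0.09 SE (edgeR adjusted p = 0.0324) and ID1 by 0.30 ± 0.06 SE (edgeR adjusted p = 0.0115). Both calls were lost without either 2 h library or the first 4 h library (adjusted p up to 0.509 for CITED2 and 0.189 for ID1). In T-47D cells the same step was 0.16 ± 0.05 SE for CITED2 (edgeR adjusted p = 0.0864) and 0.18 ± 0.07 SE for ID1 (edgeR adjusted p = 0.224). JUNB, an AP-1 subunit, went from 66.1 and 72.5 CPM with vehicle to 30.2 and 30.8 after 2 h in Ishikawa cells, and from 38.6 and 36.8 to 25.3 and 27.2 CPM in T-47D cells. It was the one member among the immediate-early and AP-1 genes.

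MAML2, a Notch coactivator, fell from 2 h to 4 h in Ishikawa cells, from 26.5 and 25.7 CPM to 17.8 and 17.4 (-0.55 ± 0.10 SE, edgeR adjusted p = 0.0112, lost without either 2 h library or the first 4 h library, adjusted p up to 0.105). LMCD1, a LIM-domain repressor of GATA6, fell over that step in T-47D cells, from 85.4 and 86.8 CPM after 2 h to 60.6 and 60.8 after 4 h (-0.51 ± 0.05 SE, edgeR adjusted p = 6.21e-06).

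RARG (a retinoic acid receptor), ZNF467 and SUV420H2 (a histone H4 lysine methyltransferase) were lower at 2 h in both lines by edgeR, with log2 fold changes between -0.47 and -0.35. Their T-47D calls held without any 1 library, and each of their Ishikawa calls was lost without some single library. FOXJ1, the master regulator of motile cilia, and DBP, a clock-controlled factor, passed at 4 h and not at 2 h in Ishikawa cells. PHF1, a Polycomb partner, is less certain. Its second 8 h library read 6.79 CPM against 14.5 in the first in Ishikawa cells, and 5.49 against 12.3 CPM in T-47D cells. It lies in the major histocompatibility complex and overlaps CUTA on the other strand, which read 9.92 and 52.7 CPM in the 2 Ishikawa libraries at 0 h. In T-47D cells PHF1 first passed at 2 h, where CUTA was lower as well (-1.79 ± 0.34 SE, edgeR adjusted p = 0.0016). CUTA was at 0.10 ± 0.30 SE there at 4 h (edgeR adjusted p = 0.863) and -0.84 ± 0.32 SE at 8 h (edgeR adjusted p = 0.0553). The part of CUTA reads in the PHF1 counts was not tested.

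The 6 genes of growth arrest and cell death were BMF, BBC3, CASP9, BTG2, CCNG2 and TP53INP1. BMF encodes a BH3-only protein that releases the cell death machinery from BCL2, and it had the most negative mean L at 8 h of the 81 (-2.08 in Ishikawa and -0.74 in T-47D cells). It lies on chromosome 15 (40380091 to 40401093, minus strand, GRCh37). Its Ishikawa libraries read 23.1 and 21.2 CPM with vehicle, 9.2 and 9.95 after 2 h, 4.93 and 5.85 after 4 h, and 5.5 and 4.17 after 8 h. Its T-47D libraries read 39.9 and 38.2, 34.9 and 35.6, 31.9 and 31.9, and 23.9 and 22.6 CPM. Thus the Ishikawa level was below 10 CPM at every time with E2, while in T-47D cells the 8 h libraries lay well below those of 4 h. At 2 h the log2 fold change was -1.20 ± 0.13 SE in Ishikawa cells (edgeR adjusted p = 1.83e-05) and -0.15 ± 0.06 SE in T-47D cells (edgeR adjusted p = 0.145). The further Ishikawa step from 2 h to 4 h was -0.81 ± 0.14 SE (edgeR adjusted p = 0.00524), a call lost without the second 2 h library or the first 4 h library (adjusted p up to 0.0902).

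BBC3, another BH3-only gene and a p53 target, was lower at 2 h in Ishikawa cells (10.9 and 11.6 CPM with vehicle, 5.53 and 6.3 after 2 h, -0.92 ± 0.16 SE, edgeR adjusted p = 0.00286), with -0.46 ± 0.15 SE in T-47D cells (edgeR adjusted p = 0.074). The Ishikawa call was lost without the second 0 h library or the first 2 h library (adjusted p up to 0.0624). CASP9, the initiator caspase of the mitochondrial pathway, passed first at 8 h in Ishikawa and at 4 h in T-47D cells, with L at 8 h of -0.56 and -0.54. CCNG2, an unusual cyclin that slows the cell cycle, went from 108 and 98.3 CPM with vehicle to 65.9 and 67.6 after 2 h in Ishikawa cells and from 132 and 134 to 91.8 and 86.3 CPM in T-47D cells. Its 2 h log2 fold changes of -0.61 ± 0.07 SE and -0.58 ± 0.05 SE both passed (edgeR adjusted p = 2.76e-05 and 5.54e-07). BTG2, an antiproliferative gene, passed at 2 h in Ishikawa cells (-0.59 ± 0.09 SE, edgeR adjusted p = 0.000819) and at 4 h in T-47D cells. TP53INP1, a p53-induced stress gene, fell from 2 h to 4 h in Ishikawa cells (35.4 and 34.4 CPM to 23.2 and 25.4, -0.50 ± 0.08 SE, edgeR adjusted p = 0.00517, lost without either 2 h library or the first 4 h library, adjusted p up to 0.0871).

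Lists of known genes were drawn up with earlier results of these data known, and members bring their own 8 h change into them. Over all genes tested at 2 h, edgeR called 1.74% lower and 2.61% higher in Ishikawa cells and 4.4% lower and 4.9% higher in T-47D cells. Of 27 tested CDK inhibitors and antiproliferative genes, 6 were lower and 4 higher at 2 h in Ishikawa cells (median log2 fold change -0.04, against -0.00 over all genes tested) and 7 lower and 1 higher in T-47D cells (median -0.20). Of 14 and 13 tested BCL2-family death genes, 2 were lower and 1 higher in Ishikawa and 1 lower and none higher in T-47D cells at 2 h. BCL2L11, another BH3-only gene, was higher at 8 h in Ishikawa cells (0.33, edgeR adjusted p = 0.0105) and lower in T-47D cells (-0.28, edgeR adjusted p = 0.0376). Of 29 and 28 tested FOXO targets and genes that restrain growth factor signals, 7 were lower and 1 higher in Ishikawa cells (median -0.12) and 9 lower and 1 higher in T-47D cells (median -0.13) at 2 h. PIK3IP1, which binds and inhibits phosphoinositide 3-kinase, and CITED2 were the members among them. Of 43 genes drawn up as repressed by estrogen in earlier work, 12 were members, and 17 of 38 tested were lower and 2 higher at 2 h in Ishikawa cells, and 18 of 40 lower and 6 higher in T-47D cells.

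The ligands were TGFB2, TGFB3, JAG1, CTF1 and CBLN2. JAG1, a ligand of Notch receptors on neighbouring cells, lies on chromosome 20 (10618332 to 10654647, minus strand, GRCh37). It stood at 339 and 350 CPM with vehicle, 121 and 124 after 2 h, 160 and 150 after 4 h, and 154 and 160 after 8 h in Ishikawa cells. In T-47D cells, where it was far lower at the start, it stood at 7.1 and 6.57, 5.9 and 5.38, 5.19 and 5.98, and 4.26 and 5.05 CPM. The Ishikawa 2 h libraries were the lowest of that line. The 2 h log2 fold change was -1.48 ± 0.06 SE in Ishikawa cells (edgeR adjusted p = 2.78e-10) and -0.28 ± 0.13 SE in T-47D cells (edgeR adjusted p = 0.226), and JAG1 rose by 0.36 ± 0.06 SE from 2 h to 4 h in Ishikawa cells (edgeR adjusted p = 0.00374, lost without either 2 h library or the first 4 h library, adjusted p up to 0.089).

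Among the Notch pathway genes, JAG1, HES1 and MAML2 were members. Of 26 tested in Ishikawa cells, 4 were lower and 3 higher at 2 h and 9 lower and 4 higher at 8 h (medians -0.07 and -0.08), and of 23 tested in T-47D cells, 2 and 1 after 2 h and 10 and 1 after 8 h (medians -0.14 and -0.16). Of all genes tested at 8 h, edgeR called 10.1% lower and 12% higher in the endometrial line and 14.3% lower and 15.4% higher in the breast line. NOTCH3, a receptor, lay just outside the rule, with L at 8 h of -0.665 in Ishikawa and -0.496 in T-47D cells. NRARP, a feedback target of Notch, had an 8 h log2 fold change of -0.88 in Ishikawa cells (edgeR adjusted p = 8.46e-06) and 0.07 in T-47D cells (edgeR adjusted p = 0.454), and HEY2 of 0.60 (edgeR adjusted p = 0.106) and 2.07 (edgeR adjusted p = 9.02e-08).

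TGFB2 and TGFB3, ligands of the TGF-β receptors, were higher in different lines at the start. TGFB2 went from 59.9 and 56.2 CPM with vehicle to 37.7 and 40.2 after 2 h and 25.1 and 26.3 after 4 h in Ishikawa cells, and from 27.1 and 31.2 to 21.3 and 20.5 and 21.8 and 22.2 CPM in T-47D cells. TGFB3 went from 299 and 296 CPM with vehicle to 230 and 231 after 2 h, 193 and 194 after 4 h, and 173 and 173 after 8 h in T-47D cells, and from 9.11 and 10.4 to 7.66 and 7.33, 6.56 and 5.39, and 6.64 and 6.86 CPM in Ishikawa cells. Each kept falling from 2 h to 4 h in the line where it was higher, TGFB2 by 0.57 on the log2 scale (SE 0.07, edgeR adjusted p = 0.000528) in Ishikawa cells and TGFB3 by 0.25 (SE 0.04, edgeR adjusted p = 0.000948) in T-47D cells, and both calls held without any 1 library. Of the TGF-β and BMP pathway genes, 5 of 40 tested were lower and 3 higher at 2 h in Ishikawa cells (median -0.04), and 12 of 39 lower and none higher in T-47D cells (median -0.10). ID2, a relative of ID1, was lower at 8 h in T-47D cells (-1.05 ± 0.08 SE, edgeR adjusted p = 3.81e-08), with -0.14 ± 0.13 SE in Ishikawa cells (edgeR adjusted p = 0.501). SMAD6, an inhibitor of BMP signals, was the nearest gene outside the rule, at an L of -0.498 in Ishikawa cells, and TGFB3 (-0.501) and SYNPO (-0.506) were the nearest inside it.

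The 6 receptors were CHRM1, ADGRF1, VIPR1, CXCR4, ACKR2 and PLXNB2. CXCR4, the receptor of the chemokine CXCL12, was near the floor of the rule at 3.35 and 3.64 CPM with vehicle in Ishikawa and 3.12 and 2.91 in T-47D cells. At 2 h it was at 1.83 and 1.84 and at 1.17 and 1.67 CPM (-0.92 ± 0.23 SE, edgeR adjusted p = 0.0374, and -1.10 ± 0.22 SE, edgeR adjusted p = 0.00204). Both calls were fragile at this depth, the Ishikawa call being lost without any of the 4 libraries compared (adjusted p up to 0.265) and the T-47D call without the first 2 h library (adjusted p 0.0619). ADGRF1, an adhesion G protein-coupled receptor, fell from 68.9 and 68.5 CPM after 2 h to 38.0 and 45.5 after 4 h in Ishikawa cells (-0.69 ± 0.09 SE, edgeR adjusted p = 0.000688). VIPR1, the receptor of vasoactive intestinal peptide, and PLXNB2, a semaphorin receptor, fell over that step in both lines, VIPR1 by 0.42 and 0.25 and PLXNB2 by 0.30 and 0.14 on the log2 scale in Ishikawa and T-47D cells. Their edgeR adjusted p reached 0.0091 and 0.0173 for VIPR1 and 0.0464 and 0.0416 for PLXNB2, and all 4 calls were lost without some single library (adjusted p up to 0.527). CHRM1, a muscarinic receptor, was among the lowest, at 1.86 and 2.47 CPM with vehicle and 0.611 and 0.807 after 8 h in Ishikawa cells.

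The 10 intracellular signalling genes were SPRY1, DUSP8, PIK3IP1, GRB7, INPP5J, BRSK1, TESK2, TCL1B, SRCIN1 and TNS2. SPRY1, a feedback inhibitor of growth factor receptor signals, had the same shape as JAG1 in Ishikawa cells, at 78.1 and 76.1 CPM with vehicle, 30.8 and 31.2 after 2 h, 44.5 and 44.8 after 4 h, and 43.0 and 48.7 after 8 h. Its 2 h log2 fold change was -1.30 ± 0.08 SE (edgeR adjusted p = 1.57e-08), and it rose by 0.55 ± 0.08 SE from 2 h to 4 h (edgeR adjusted p = 0.000884), a call that held without any 1 library. In T-47D cells it stood at 5.6 and 5.87 CPM with vehicle and 3.51 and 3.83 after 2 h. DUSP8, a phosphatase of stress-activated kinases, fell from 33.3 and 33.4 CPM after 2 h to 24.7 and 25.7 after 4 h in T-47D cells (-0.41 ± 0.07 SE, edgeR adjusted p = 0.00161).

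GRB7, an adaptor encoded beside ERBB2, went from 25.5 and 30.7 CPM with vehicle to 14.9 and 17.3 after 2 h in T-47D cells (-0.81 ± 0.10 SE, edgeR adjusted p = 2.12e-05), with -0.48 ± 0.13 SE in Ishikawa cells (edgeR adjusted p = 0.0564). TNS2, a focal adhesion protein that damps insulin signalling and whose promoter window is shown above, read 26.3 and 37.4 CPM with vehicle, 19.8 and 20.2 after 2 h, 11.6 and 15.2 after 4 h, and 13.6 and 13.5 after 8 h in Ishikawa cells. Its T-47D libraries read 89.4 and 96.0, 74.0 and 71.9, 53.5 and 60.1, and 53.4 and 50.2 CPM. It fell from 2 h to 4 h in T-47D cells (-0.36 ± 0.06 SE, edgeR adjusted p = 0.00139), and the Ishikawa step of -0.56 ± 0.14 SE did not pass (edgeR adjusted p = 0.0549). Its Ishikawa call at 2 h was lost without the second 0 h library or either 2 h library (adjusted p up to 0.221). INPP5J and SRCIN1, which restrain phosphoinositide and SRC kinase signals, had L values at 8 h between -0.79 and -0.57.

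**Figure D3:**
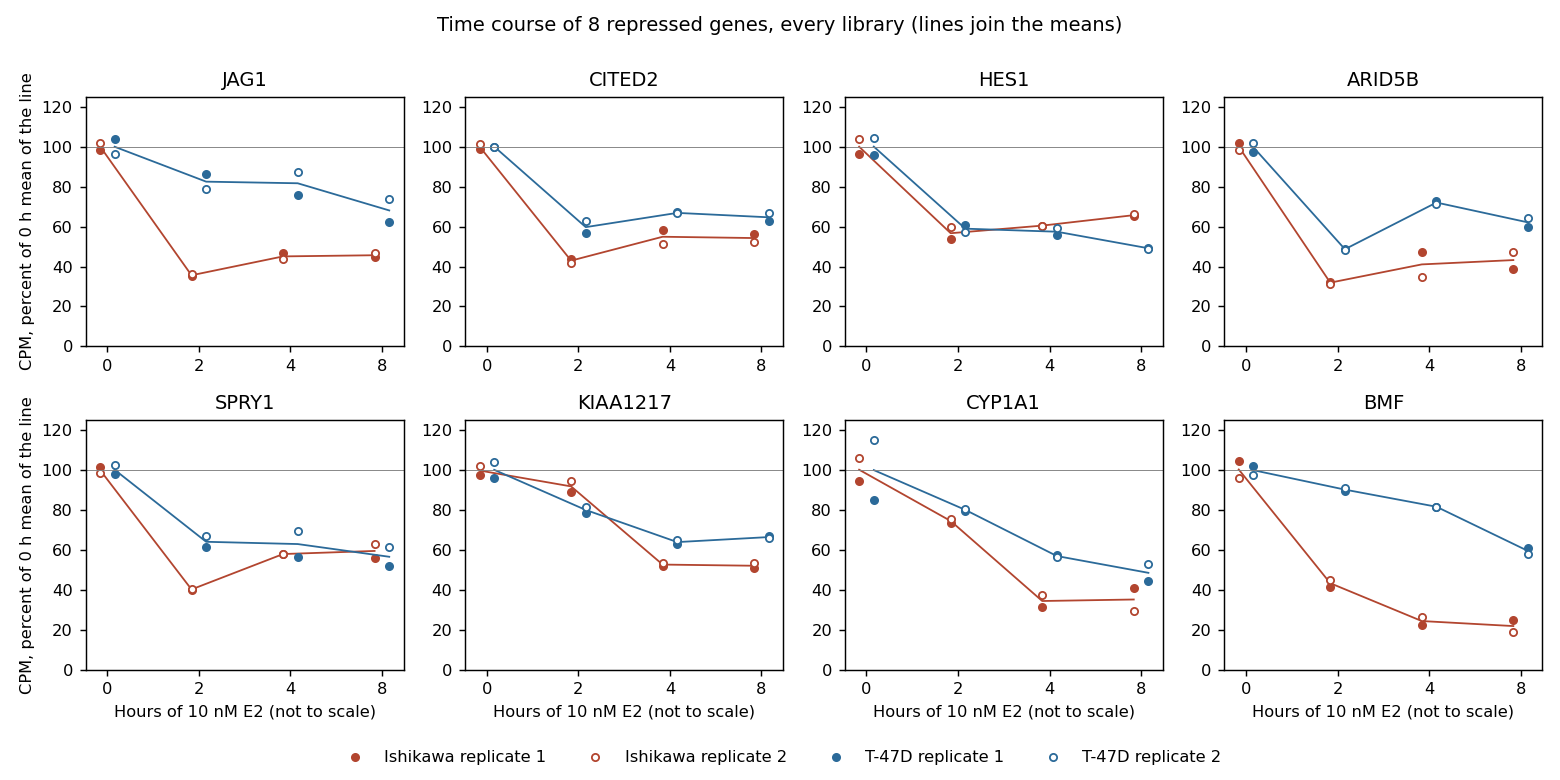
CPM as percent of the line's 0 h mean (y axis, from 0) by time of E2 (x axis, not to scale) for 8 genes, with filled and open points for replicates 1 and 2 of Ishikawa (red) and T-47D (blue) cells and lines through the means. JAG1, CITED2, ARID5B and SPRY1 are lowest at 2 h in Ishikawa cells, and BMF ends at 5.5 and 4.17 CPM in Ishikawa and 23.9 and 22.6 in T-47D cells.

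The 9 adhesion and matrix genes were AMIGO2, PCDH7, FAT2, IGSF9, FLRT3, ITGB6, ITGB8, THSD7A and HYAL1. AMIGO2, an adhesion protein with leucine-rich repeats, stood at 162 and 171 CPM with vehicle, 81.1 and 89.3 after 2 h, 88.8 and 73.3 after 4 h, and 72.7 and 90 after 8 h in Ishikawa cells. In T-47D cells it stood at 68.3 and 65.1, 35.2 and 34.5, 30.5 and 27.7, and 31.9 and 34.5 CPM. Most of its change had come by 2 h in both lines, with log2 fold changes of -0.95 ± 0.10 SE and -0.94 ± 0.06 SE (edgeR adjusted p = 1.8e-05 and 7.88e-09). AMIGO2 and PCED1B, both among the 81, overlap on opposite strands of chromosome 12, and since the strand setting of the counting is not given in the sources used here, their reads cannot be told apart there. The integrin subunits ITGB6 and ITGB8, whose integrins release latent TGF-β, and PCDH7, a protocadherin, had 2 h log2 fold changes between -0.04 and 0.02 in Ishikawa cells, none past the test. ITGB8 read 100 and 90.1 CPM with vehicle, 91.9 and 99.1 after 2 h, 60.1 and 58.3 after 4 h, and 58.3 and 65.6 after 8 h there. Between 2 h and 4 h ITGB8 fell by 0.66 on the log2 scale (SE 0.08) and PCDH7 by 0.86 (SE 0.10), each with an edgeR adjusted p of 0.000255 and held without any 1 library. ITGB6 moved by -0.60 ± 0.16 SE, with an edgeR adjusted p of 0.0669. In T-47D cells the first time point to pass was 2 h for PCDH7 and 8 h for ITGB6 and ITGB8.

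The 7 cytoskeletal genes were PHLDB2, KIAA1217, CLIP2, SPEG, SYNPO, KRT80 and PRX. KIAA1217, a large cytoskeleton-associated gene on chromosome 10 (23983675 to 24836777, plus strand, GRCh37), read 166 and 173 CPM with vehicle, 151 and 161 after 2 h, 88.3 and 90.7 after 4 h, and 86.2 and 90.8 after 8 h in Ishikawa cells. In T-47D cells it read 87.9 and 95.0, 71.7 and 74.5, 57.5 and 59.3, and 61.2 and 60.2 CPM. The 4 h libraries lay below the 2 h libraries in both lines. The step was -0.78 ± 0.06 SE in Ishikawa cells (edgeR adjusted p = 1.62e-05) and -0.32 ± 0.05 SE in T-47D cells (edgeR adjusted p = 0.00116), and both calls held without any 1 library. KRT80, a keratin, fell over that step in both lines as well (-0.47 ± 0.12 SE and -0.21 ± 0.04 SE, edgeR adjusted p = 0.0464 and 0.0111). In Ishikawa cells its 4 h libraries read 194 and 254 CPM and its 8 h libraries 268 and 195, and that call was also lost under DESeq2 and without 5 single libraries (adjusted p up to 0.542). In T-47D cells the call was lost without any of the 4 libraries compared (adjusted p up to 0.129). SPEG had the only L at 2 h above 0.1 of the 81, 0.32 in T-47D cells, from 2.83 and 2.89 CPM with vehicle to 3.62 and 3.76 after 2 h and 1.55 and 1.62 after 8 h (edgeR adjusted p = 0.205 at 2 h).

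Of the 6 genes of enzymes, transport and vesicles, CYP1A1, a cytochrome P450 that hydroxylates estradiol and foreign aromatic compounds, made the largest step from 2 h to 4 h in Ishikawa cells. It stood at 43.6 and 48.9 CPM with vehicle, 33.9 and 34.9 after 2 h, 14.4 and 17.4 after 4 h, and 18.9 and 13.6 after 8 h in that line, and at 6.02 and 8.13, 5.63 and 5.7, 4.07 and 3.99, and 3.13 and 3.74 CPM in T-47D cells. The log2 fold change of 4 h against 2 h was -1.09 ± 0.12 SE in Ishikawa cells (edgeR adjusted p = 0.000254, held without any 1 library) and -0.49 ± 0.15 SE in T-47D cells (edgeR adjusted p = 0.0992). AHR, which encodes the receptor that drives CYP1A1, had an 8 h log2 fold change of 0.18 ± 0.08 SE in Ishikawa cells (edgeR adjusted p = 0.139) and 0.10 ± 0.05 SE in T-47D cells (edgeR adjusted p = 0.208). ABCA1, the cholesterol exporter, went from 7.38 and 7.58 CPM with vehicle to 4.22 and 4.0 after 2 h in Ishikawa cells (-0.85 ± 0.15 SE, edgeR adjusted p = 0.00197, and 0.0506 without the second 2 h library). UNC13D and RAB27B, which serve granule release, ORAI3, a calcium channel, and TMEM86A, which encodes a lysoplasmalogenase, had L at 8 h between -0.87 and -0.52.

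The remaining 16 genes were the cilium genes CCDC103, WDR66 and RIBC1, the less well characterised genes HLA-E, PCED1B, EMP1, C15orf52, C15orf62, SMIM5, NYNRIN, KLHDC7A and PRR15L, and SPACA6P, SLC9A7P1, ARHGEF34P and ZNF503-AS2, grouped as pseudogenes and noncoding RNAs. SPACA6P has the symbol of a pseudogene but matched SPACA6, which is annotated as protein coding. HLA-E, a class I antigen-presenting gene grouped with the less well characterised genes, had a spread within groups that was large beside its change. Its T-47D libraries read 10.2 and 11.1 CPM with vehicle, 3.95 and 13.9 after 2 h, 2.7 and 3.08 after 4 h, and 6.56 and 2.73 after 8 h. It lies in the major histocompatibility complex, whose class I genes resemble each other, and SLC9A7P1 and ARHGEF34P likewise resemble other genes, so their counts are uncertain. PCED1B read 10.1 and 9.22 CPM with vehicle, 5.9 and 5.87 after 2 h, 4.55 and 3.89 after 4 h, and 3.43 and 3.41 after 8 h in T-47D cells. EMP1, a membrane protein of epithelia, read 11 and 10.0, 7.19 and 8.85, 7.37 and 6.39, and 4.15 and 3.41 CPM there, so that its 8 h libraries lay apart from the rest. In all, 26 of the 81 overlap a gene on the opposite strand, a share that was not counted over the expressed genes. Of the 81, 78 are protein coding (SPACA6P counted among them). The median transcript of the 81 was 3430 bases with 7 exons, against 3400 bases with 9 exons over the expressed genes. The median gene span was 18.6 kb against 33.4 kb.

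The size of the change at 2 h was compared between the lines as the interaction of line and time over all 16 libraries. The 0 h libraries of both lines served the choice of the genes, so the difference was not independent of it. It passed for 9 of the 81 genes (2.67% of 17090 genes tested were called in either direction), all with the larger fall in Ishikawa cells. Over all genes tested, the T-47D minus Ishikawa difference was called above 0 for 1.4% and below 0 for 1.28%. The T-47D minus Ishikawa difference in log2 fold change was largest for JAG1 (1.21 ± 0.12 SE, edgeR adjusted p = 1.37e-06), BMF (1.06 ± 0.14 SE, 3.9e-05), C15orf62 (0.98 ± 0.25 SE, 0.0359), SPRY1 (0.67 ± 0.15 SE, 0.0113) and JUNB (0.66 ± 0.12 SE, 0.00237). Of the 9, BMF, JAG1, JUNB and LMCD1 held without any 1 library. The count was 5 without either Ishikawa 2 h library or without the second T-47D 2 h library. JAG1 and SPRY1 were many times lower in T-47D cells at 0 h, while BMF was higher there (39.9 and 38.2 CPM against 23.1 and 21.2). Across the 81 genes L at 2 h in the lines had a Pearson r of 0.55 and a Spearman rho of 0.54, over genes that share the libraries of a line and are not independent replicates. The r and rho were 0.17 and 0.23 for L at 4 h, and 0.31 and 0.3 for L at 8 h, which served the choice. The T-47D minus Ishikawa difference at 2 h was 0.06 ± 0.10 SE for HES1 (edgeR adjusted p = 0.991), 0.03 ± 0.14 SE for AMIGO2 (1.0) and 0.05 ± 0.09 SE for CCNG2 (0.993).

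**Figure D4:**
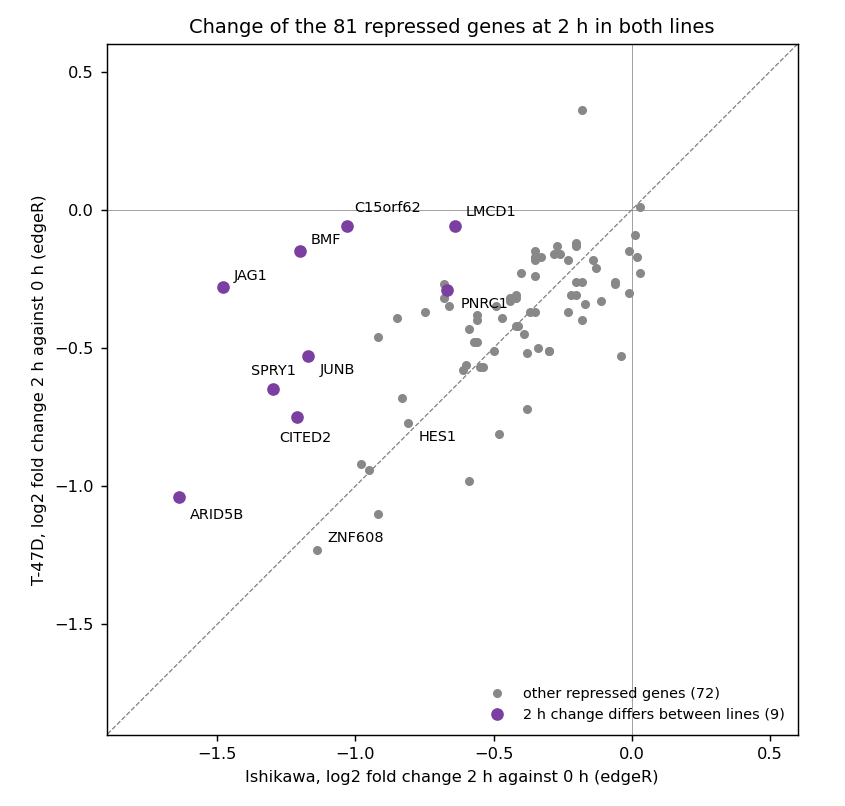
Log2 fold change at 2 h against 0 h by edgeR in Ishikawa (x axis) and T-47D cells (y axis) for the 81 genes, with the 9 whose change differed between the lines in purple and equality as a dashed line. All 9 lie above the line, from PNRC1 with a difference of 0.40 to JAG1 with 1.21.

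Neither the 2 h nor the 4 h libraries served the choice of the genes, but the step from 2 h to 4 h was not fully independent of it. A gene short of the limit at 2 h had to fall later to be chosen. The Ishikawa 4 h libraries were also like those of 8 h, and the spread was estimated with the 0 h and 8 h libraries included. The step was downward for 16 of the 81 in Ishikawa cells (1.21% of genes tested were called lower) and 13 in T-47D cells (1.46%), and upward for 4 (1.18%) and 2 (1.94%). Both 4 h libraries lay below both 2 h libraries for 58 and 55 of the 81, against 31.9% and 22.7% of expressed genes, and above for 8 and 10, against 24% and 27.9%. The step was called downward in both lines for 5 genes, among them VIPR1, KIAA1217, PLXNB2 and KRT80, and 2 of the 5, KIAA1217 among them, held in both lines without any 1 library. Among the genes called in Ishikawa cells the largest falls were CYP1A1 (-1.09), PCED1B (-0.88), PCDH7 (-0.86), BMF (-0.81) and KIAA1217 (-0.78), and the genes that rose were SPRY1 (0.55), CITED2 (0.38), JAG1 (0.36) and ID1 (0.30). Among those called in T-47D cells the largest falls were HLA-E (-1.62), LMCD1 (-0.51), THSD7A (-0.43), DUSP8 (-0.41) and TNS2 (-0.36), and ARID5B (0.57) and ZNF608 (0.42) rose. The HLA-E call was lost under DESeq2 (adjusted p = 0.247) and without 3 single libraries, and that of THSD7A, a matrix-associated protein, without any of the 4 libraries compared (adjusted p up to 0.112).

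Without any 1 library, 7 of the 16 falls in Ishikawa cells and 6 of the 13 in T-47D cells held each time. The Ishikawa count of 16 was 8 without the first 2 h library, 7 without the second 2 h library and 7 without the first 4 h library, and the T-47D count of 13 was 8, 6, 7 and 6 without the first and second 2 h and the first and second 4 h library. Upward calls were 1 without either 2 h or the first 4 h library in Ishikawa cells, and 1 without either 2 h or the second 4 h library and 4 without either 8 h library in T-47D cells. With the 4 h and 8 h libraries of Ishikawa cells as 1 group, 28 genes were lower and 5 higher than at 2 h, and 78 were lower than at 0 h. The 8 h libraries in that fit had served to choose genes low at 8 h, so lower calls were favoured and the counts are a description only.

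**Figure D5:**
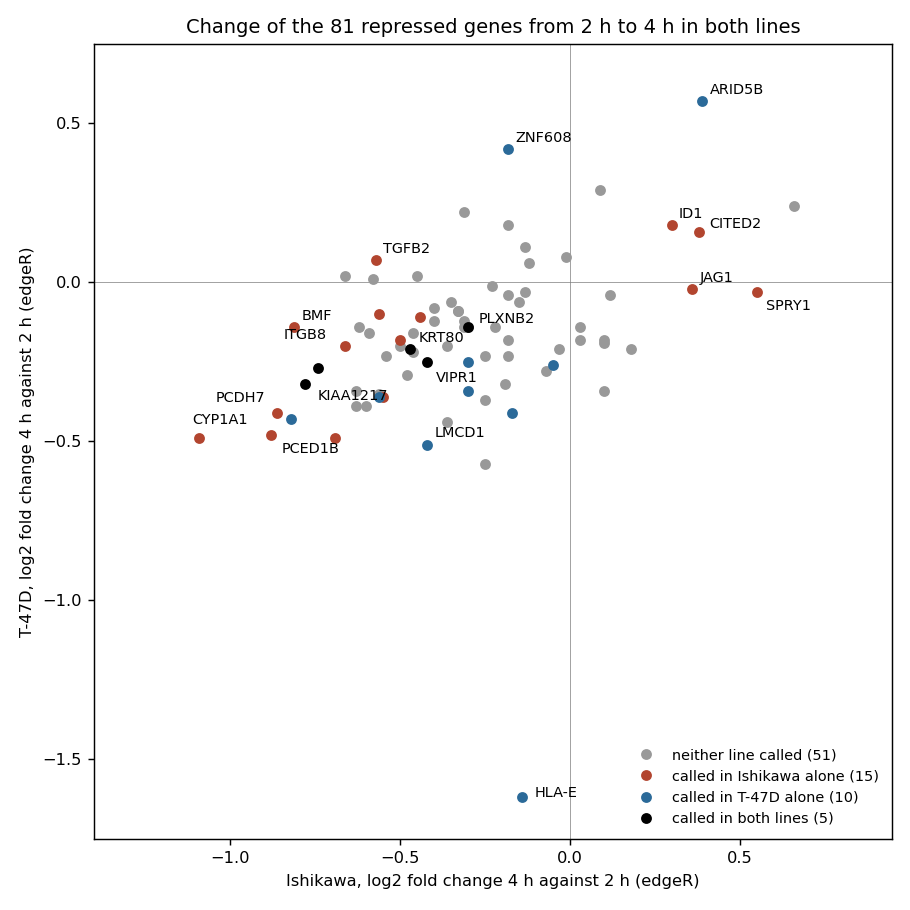
Log2 fold change at 4 h against 2 h by edgeR in Ishikawa (x axis) and T-47D cells (y axis) for the 81 genes, coloured by the line in which the change passed the test. Most points lie below 0 on both axes, the 5 genes called in both lines lie between -0.78 and -0.30 in Ishikawa cells, and SPRY1, CITED2, JAG1 and ID1 lie to the right of 0.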

How the data were processed

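Polyadenylated RNA of 16 libraries (2 cell lines, 4 time points, 2 replicates) was counted per gene. Raw counts per gene, as deposited, were made by the authors with HISAT2 (alignment, hg19), SAMtools and featureCounts (UCSC Known Genes). Versions, strand setting and the handling of read pairs and multiply mapped reads are not given in the sources used here. Groups followed the labels.

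CPM were counts over library totals, with a pseudocount of 0.5 in L. Counts were tested with edgeR 4.0.16 in R 4.3.3 (filterByExpr, TMM, quasi-likelihood F-test, time as a factor within each line, no replicate block, Benjamini-Hochberg adjustment over all genes tested, threshold 0.05). SE is the log2 fold change divided by the root of its F statistic. edgeR's biological coefficient of variation came to 6.45% (Ishikawa) and 5.02% (T-47D). All 81 genes were tested and counted, and 1 of them is not reported by name here. Replicate libraries differed by more than sampling noise. Coordinates came from GENCODE on GRCh37, matching 77 genes directly and 4 through a synonym, and promoters from RefSeq on GRCh38.p14. Figures used matplotlib.

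Alternatives were other limits of the rule, DESeq2 1.42.0 in place of edgeR, RLE in place of TMM, thresholds of 0.01 and 0.1, no filter or a minimum of 10 counts per library, a replicate block, fits restricted to the compared times, and each library left out in turn. Taking the Ishikawa 4 h and 8 h libraries as 1 group in the tests, and leaving out the 2 members in the major histocompatibility complex, were chosen after seeing the data. The genes, roles and lists were chosen with earlier results of these data known. Named are the 10 genes with the most negative mean L at 8 h, the 5 with the most negative L at 2 h per line, those on a fixed list, the 2 nearest each side of the limit, the 5 largest differences between lines, the 5 largest steps from 2 h to 4 h per line and direction, and any other for its role.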

Additional observations from a re-analysis of the deposited data

Results flagged for a closer look

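The change at 2 h differed between the lines for 9 genes by the interaction of line and time in edgeR, each with the larger fall in Ishikawa cells. The T-47D minus Ishikawa difference on the log2 scale was 1.21 for JAG1 (adjusted p = 1.37e-06), 1.06 for BMF (3.9e-05), 0.98 for C15orf62 (0.0359), 0.67 for SPRY1 (0.0113), 0.66 for JUNB (0.00237), 0.61 for ARID5B (0.0168), 0.59 for LMCD1 (0.00165), 0.48 for CITED2 (0.00416) and 0.40 for PNRC1 (0.033). In ARID5B, C15orf62, CITED2, PNRC1 and SPRY1 the call was lost without at least 1 single library, with an adjusted p of up to 0.112, 0.216, 0.0506, 0.213 and 0.111. From 2 h to 4 h, both T-47D libraries of ZNF608 and TGFB2 moved up and both Ishikawa libraries moved down. These log2 changes were 0.59 and 0.65 higher in T-47D than in Ishikawa cells, and the difference was not tested.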

How the results depend on the processing

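With 2 libraries per group, many calls rest on single libraries. The number of genes taken by the rule was 172 with L at -0.4 or lower, 46 at -0.6 and 3 at -1, and 70 to 104 without single 0 h or 8 h libraries. Of the 81, 63 were taken again without the second Ishikawa 0 h library, the fewest, and 80 without the first, the most. With TMM-scaled CPM the rule took 73 genes, all among the 81. With the Ishikawa 4 h and 8 h libraries together it took 82, of which 74 were among the 81. With an adjusted p of 0.01, the genes lower at 4 h than at 2 h numbered 10 in Ishikawa and 6 in T-47D cells, the genes higher 2 and 1, and those whose 2 h change differed between lines 5. With an adjusted p of 0.1, T-47D cells had 22 lower and 4 higher. With no filter on low counts there were 27 lower in Ishikawa cells, and 23 lower and 4 higher in T-47D cells. A fit of only the 2 h and 4 h libraries gave 24 lower and 5 higher in T-47D cells, DESeq2 gave 4 higher there, and the 4 h and 8 h libraries as 1 group, which brings in the 8 h values that chose the genes, gave 28 lower in Ishikawa cells. The cause of these shifts was not tested. Without 1 library at a time, the ranges in Ishikawa cells were 18 to 36 genes lower at 2 h than 0 h, 40 to 72 at 4 h than 0 h, 7 to 24 at 4 h than 2 h, and 1 to 6 higher at 4 h than 2 h. In T-47D cells they were 25 to 41, 55 to 73, 6 to 19 and 1 to 4, and the difference between lines ranged from 5 to 9. Replicate numbers did not pair the samples, the deviations from group means correlating at -0.115 to 0.0533 (Ishikawa) and -0.0547 to 0.0595 (T-47D) for equal numbers. Under the replicate block the counts, in the order of the ranges above, were 30, 69, 16 and 4 for Ishikawa, 40, 70, 12 and 2 for T-47D, and 7 for the difference between lines. Of 1355 values for single called genes under the alternatives, 1161 kept direction and call, 194 kept direction and lost the call, and 0 reversed.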

Other observations

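Cilium genes beyond the members were looked at because FOXJ1, CCDC103, WDR66 and RIBC1 were among the 81, so the list was chosen after seeing them and is no separate support. Of 46 genes of motile cilia, 36 (Ishikawa) and 38 (T-47D) were tested. By edgeR, 6 were lower and 3 higher at 8 h in Ishikawa cells (median log2 fold change -0.18) and 8 lower and 3 higher in T-47D cells (median -0.30). Of all genes tested at 8 h, edgeR called 10.1% lower and 12% higher in the endometrial line and 14.3% lower and 15.4% higher in the breast line. From 2 h to 4 h, whose libraries the rule did not use, 1 was lower in each line and none higher. Over all genes tested, that step was called lower for 1.21% and higher for 1.18% in Ishikawa cells, and for 1.46% and 1.94% in T-47D cells. Outside the members, CFAP45, an axoneme protein, was at -0.54 in T-47D cells at 8 h (edgeR adjusted p = 0.00105) and -1.20 in Ishikawa cells (edgeR adjusted p = 0.0635). MYB, which acts early in multiciliated cells and in growth, was at 2.10 in T-47D cells (adjusted p = 1.38e-11) and 0.31 in Ishikawa cells (adjusted p = 0.167).

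Genes of the aryl hydrocarbon receptor were looked at beside CYP1A1. At 8 h TIPARP, its feedback target, rose in Ishikawa cells (0.74, edgeR adjusted p = 5.06e-05) and CYP1B1 was at 0.37 (adjusted p = 0.0824), while ARNT, the partner of the receptor, was lower in both lines (-0.23 and -0.19, adjusted p = 0.0194 and 0.00463). In all, 2 of 9 tested genes of this list were lower and 1 higher at 8 h in Ishikawa cells, and 2 of 8 lower and 1 higher in T-47D cells. From 2 h to 4 h, 3 of 9 tested genes of this list, CYP1A1 included, were lower in Ishikawa cells, and T-47D cells had 2 of 8 lower. Of 17 clock genes, DBP was the one member. At 8 h 1 was lower and 3 higher in Ishikawa cells and 5 lower and 3 higher in T-47D cells, where PER1 was at -0.46 (adjusted p = 0.000296) and NR1D1 at 0.56 (adjusted p = 0.00332). The shares over all genes tested, given above for the cilium genes, are the background here too, those of 8 h for the 8 h counts and those of the step from 2 h to 4 h for the counts of that step. These lists too were drawn up after the members were seen.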
